A study of Mus musculus with 9 samples.

Results

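The genes described here are the amino acid transporters of the mouse lung, taken from 7 solute carrier families (Slc1a, Slc3a, Slc6a, Slc7a, Slc36a, Slc38a and Slc43a). They were chosen by symbol among the coding rows of the files, which gave 61 of 18984 genes. Slc7a2 and Slc7a11 match the same pattern and were not included. Of the 61, 59 are solute carriers and 2, Slc7a6os and Slc6a19os, share a symbol root with a transporter on the opposite strand and are no transporters themselves. The label is broader than amino acids in places, since several Slc6 members carry monoamines, taurine or creatine and Slc43a3 is known to carry purine nucleobases.

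Lungs of immunocompetent C57BL/6 mice were compared 24 hours after inoculation into the trachea with normal saline, with conidia (the resting spores) of Aspergillus fumigatus, or with hyphal fragments (the filamentous form) of the fungus. Each group had 3 libraries of poly(A) RNA. The labels name no dose, age or sex. Nothing in them ties a library to its own animal, so the p-values reflect how far these samples vary, and that variation may be technical. Values are FPKM, fragment counts scaled by transcript length and library size. The spacing of the lowest values put the depth at roughly 21000000 to 22500000 fragments per library, with overlap between groups, and 12451 to 13730 genes per library reached 1 FPKM. All 10 alveolar type 1 and all 11 alveolar type 2 markers examined reached 1 FPKM in at least 3 libraries. Differences are given on the log2(FPKM + 1) scale, which understates the change of weakly expressed genes. On that scale the median of all genes tested lay at −0.37 in hyphae against saline, −0.29 in hyphae against conidia and −0.07 in conidia against saline. Rescaled values, for which each library was divided by a median-of-ratios factor (0.811 to 1.134), bring that median close to 0 and are given beside the deposited ones where they bear on a call or a sign. Called means an adjusted p below 0.05 in limma.

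Amino acids cross membranes mainly through carriers. Some use the sodium gradient to concentrate their substrates, some exchange an amino acid inside the cell for another outside, and some use protons, among them carriers of the lysosome that return amino acids from degraded protein to the cytosol. The exchangers of the Slc7 light chain group reach the cell surface only when bound to a heavy chain, of which Slc3a2 (CD98) is the widespread one. In lung, epithelial carriers keep the airway lining fluid poor in amino acids, the capillary endothelium clears serotonin and noradrenaline from the blood, and activated leukocytes raise carriers for leucine, arginine and glutamine.

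In saline lungs 3 members stood far above the rest. Slc1a5, an exchanger of small neutral amino acids and glutamine, was at 177, 107 and 133 FPKM in replicates 1 to 3. Slc43a3 was at 110.2, 110.3 and 170.1 FPKM, and Slc3a2 at 126, 127 and 133 FPKM. The ranges of these 3 overlapped, so their order is not resolved. Next came Slc6a6, the taurine carrier, at 46.6 ± 7.47 FPKM (mean ± SD, n = 3), Slc38a2 at 38.1 ± 0.35 and Slc38a10 at 32.55 ± 1.21, in that order without overlap. The summed FPKM of all 61 genes made up 0.144 to 0.166% of the library total after saline, 0.172 to 0.188% after conidia and 0.183 to 0.204% after hyphae. These shares did not overlap between saline and either fungal group, and the conidia and hyphae ranges overlapped. The sums are led by few genes. Slc3a2 and Slc43a3 averaged 128.5 and 130.2 FPKM after saline, 195.9 and 216.8 after conidia and 209.8 and 225.6 after hyphae. More members were called lower (13) than higher (8) after hyphae. The library total also holds Scgb1a1, at 59121 to 110355 FPKM after saline, 40998 to 60182 after conidia and 27860 to 33464 after hyphae. No share without Scgb1a1 was taken, so the separation of the shares from saline is shown for the full total only.

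Of the 61 members 36 reached 1 FPKM in at least 3 libraries and were tested. None of them passed through the libraries of 1 group alone. The other 25 stayed below that level, and 23 of them never reached 1 FPKM. Slc1a7 (highest value 1.11 FPKM) and Slc6a18 (1.07) lay just outside the threshold, while Slc7a3 (1.67, 0.57 and 1.20 FPKM after saline) lay just inside it. The low members included the neuronal carriers Slc6a3 and Slc6a5 for dopamine and glycine (0.06 FPKM or less), the glutamate carriers Slc1a2 (0.57 or less) and Slc1a6 (0.17 or less), and the GABA and betaine carriers Slc6a12 (0.60 or less) and Slc6a13 (0.25 or less). The kidney and gut type heavy chain Slc3a1 reached 0.84 FPKM, and its partner light chains Slc7a9 and Slc7a13 reached 0.12 and 0.05. The other low members named here were Slc7a14, Slc7a15, Slc6a7, Slc6a16, Slc6a17, Slc6a19, Slc6a20b, Slc6a21, Slc36a3, Slc38a3, Slc38a8, Slc38a11 and Slc6a19os, all at 0.90 FPKM or less. No difference between groups was tested for these members.

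Hyphae were set against saline to ask how the lung transcriptome stood 1 day after the filamentous form was given. Of the 36 tested members 21 differed (58.3%), 8 higher and 13 lower, where 64.9% of all genes tested differed, 14.9% higher and 50% lower. After rescaling 24 differed, 13 higher and 11 lower, against 29.5% of all genes higher and 30% lower. All 8 higher members and 11 of the 13 lower ones kept call and direction on both scales. The median over the tested members was −0.17 as deposited and 0.16 rescaled, beside −0.37 and −0.01 over all genes. The share of members called was thus near that of all genes. By a fold of at least 2, 12 members differed (33.3%), beside 21.7% of all genes, and 8 (22.2%) beside 17% after rescaling. The libraries of the 2 groups did not overlap in 23 members (63.9%, beside 70.7% of all genes) and in 25 after rescaling (69.4%, beside 66.8%). In bulk tissue, fewer cells of a type and less RNA per cell cannot be told apart. No call among the 21 was lost when any 1 of the 9 libraries was left out.

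**Figure D1:**
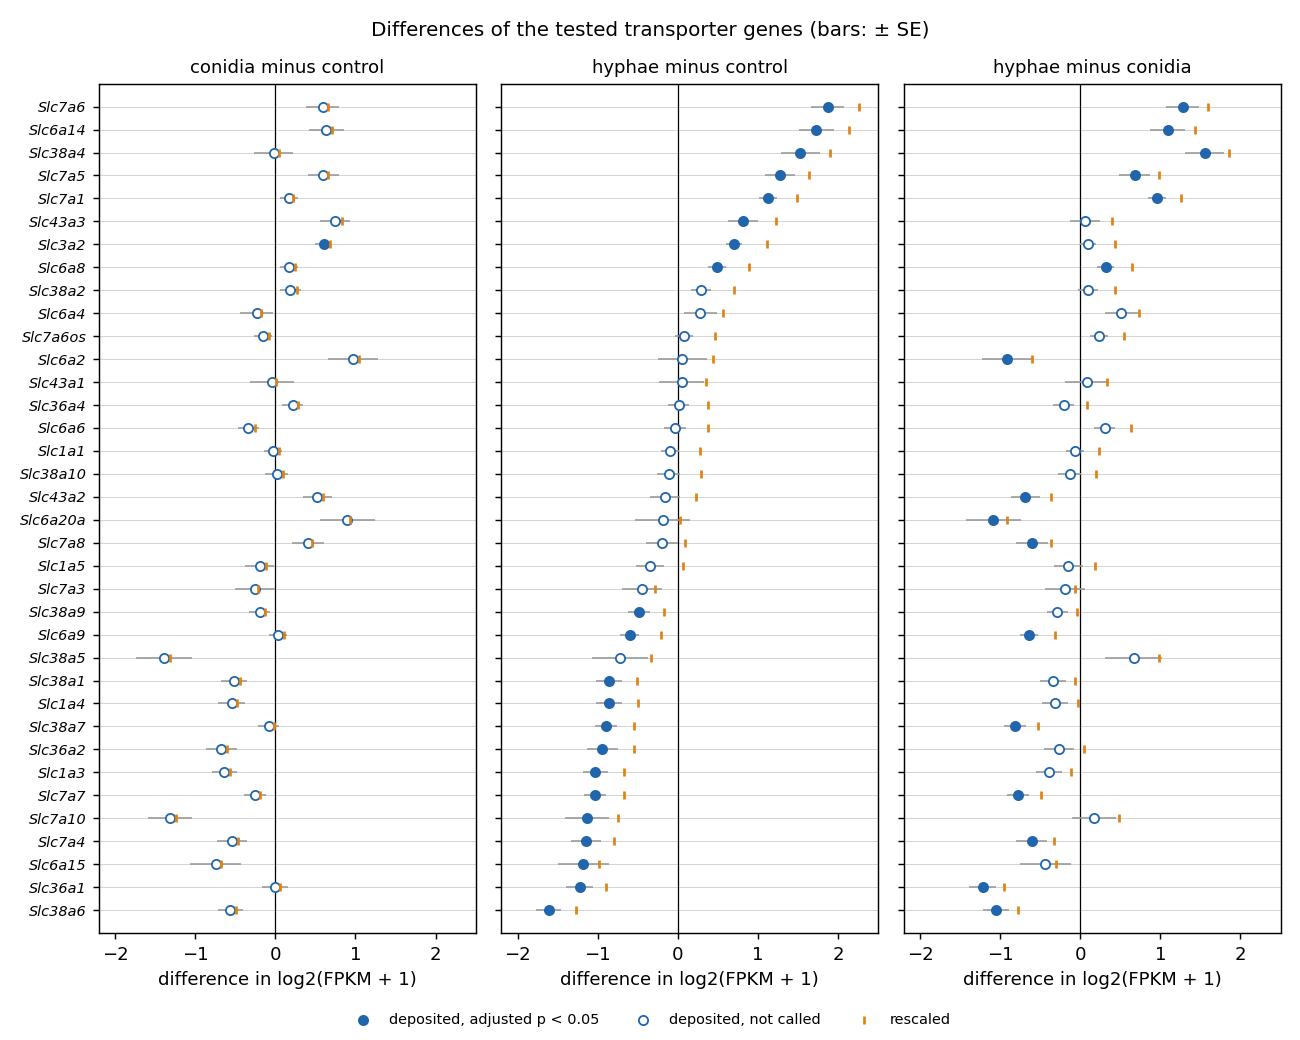
Difference in log2(FPKM + 1) of each of the 36 tested genes for conidia minus control (saline), hyphae minus control and hyphae minus conidia, with bars of ± 1 standard error (SE). Filled circles passed an adjusted p of 0.05 as deposited, open ones did not, and ticks show rescaled values. From Slc38a6 at −1.61 to Slc7a6 at 1.87 the hyphae panel is the widest, and only Slc3a2 is filled in the conidia panel.

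The heavy chain and its light chains were followed together, since a functional exchanger needs one of each. Slc3a2 was higher in every fungal library. It stood at 126, 127 and 133 FPKM after saline, 208, 174 and 205 after conidia and 227, 210.5 and 192 after hyphae. The saline values did not overlap with either fungal group, while the 2 fungal groups overlapped as deposited and not after rescaling. Slc3a2 rose by 0.70 after hyphae (SE 0.10, adjusted p = 0.00047; 1.12 rescaled).

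The light chains moved apart from each other. Slc7a6, an exchanger of cationic for neutral amino acids with sodium, had the largest rise of all members, from 7.63, 6.59 and 4.72 FPKM after saline to 22.3, 25.2 and 29.1 after hyphae. Its hyphae values were 4.04 times the saline ones on average, with no overlap (log2 difference 1.87, SE 0.21, adjusted p = 0.000118; 2.26 rescaled). The conidia libraries lay at 12.4, 7.33 and 10.5 FPKM, and replicate 2 was below the highest saline library. Slc7a6os, the adjacent gene, stood at 16.8 to 18.1 FPKM after saline and 16.7 to 21.3 after hyphae and was called only after rescaling (0.07 deposited; 0.47 rescaled, adjusted p = 0.00585). Slc7a5 (LAT1), the exchanger that brings leucine and other large neutral amino acids into dividing and activated cells, rose as well. It was at 3.99, 2.88 and 4.71 FPKM after saline, 8.34, 5.57 and 5.22 after conidia and 11.6, 11.1 and 9.28 after hyphae, so that the 3 groups did not overlap. The rise after hyphae was 1.27 (SE 0.19, adjusted p = 0.000511; 1.64 rescaled).

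Slc7a7, the close relative of Slc7a6 that is known in macrophages and in gut and kidney epithelium, fell instead. Its values were 11.9, 12.2 and 10.85 FPKM after saline, 7.90, 10.75 and 10.3 after conidia and 5.33, 5.94 and 4.37 after hyphae, a log2 difference of −1.03 in hyphae against saline (SE 0.14, adjusted p = 0.000284; −0.67 rescaled). Every hyphae library lay below every other library. Slc7a7 overlaps Oxa1l on the RefSeq map, and reads from the overlap cannot be assigned, since the protocols mention no strand marking. Oxa1l stood at 18.1 to 25.2 FPKM over all libraries and fell less (−0.30 after hyphae, adjusted p = 0.0218, and 0.10 rescaled). The 11 markers of monocytes and recruited macrophages summed to 179 to 244 FPKM after saline, 305 to 380 after conidia and 208 to 350 after hyphae. Chil3 was the largest part of each sum. Against saline 3 of them fell after hyphae (3 rose and 3 fell rescaled). Ccr2 stood at 9.14 to 17.3 FPKM after saline and 1.01 to 1.32 after hyphae, and Ly6c2 at 11.5 to 26.8 and 14.5 to 40.4. Against conidia 7 of the 11 were lower in hyphae and 0 higher (6 and 0 rescaled). The 11 alveolar macrophage markers summed to 238 to 667, 265 to 574 and 190 to 603 FPKM, and 2 fell (1 rose rescaled). Fabp4, which is also an adipose marker, made up most of the highest sum of each group. It was at 500 FPKM in saline replicate 1, 360 in conidia replicate 3 and 445 in hyphae replicate 3. The width of these ranges is therefore no measure of macrophages. No marker on these lists was at 0 throughout a group, and their part in the Slc7a7 result was not tested. Slc7a10 (asc-1), an exchanger of small neutral amino acids, stood at 19.6, 23.9 and 22.9 FPKM after saline and at 7.15, 10.4 and 11.4 after hyphae (−1.14, SE 0.27, adjusted p = 0.00587; −0.75 rescaled). It was at 5.29, 13.1 and 8.01 FPKM after conidia, below all saline values. Slc7a10 overlaps Lrp3 on the RefSeq map, with the same limit on reads. Lrp3 stood at 2.34 to 4.65 FPKM over all libraries (−0.41 after hyphae, adjusted p = 0.0272, and −0.08 rescaled). Slc7a8 (LAT2), which overlaps with Slc7a5 in substrates, was at 3.26, 2.38 and 1.59 FPKM after saline, 3.60, 3.04 and 3.69 after conidia and 1.64, 2.58 and 1.62 after hyphae and was not called (−0.20, SE 0.20, adjusted p = 0.406; 0.09 rescaled).

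FPKM is scaled by transcript length, so the levels of the chains can be set side by side. Slc3a2 stood at 2.64 to 2.96 times the sum of the 5 light chains after saline, 4.38 to 5.55 times after conidia and 3.45 to 4.72 times after hyphae. Slc7a10 made up 42.2 to 51.2% of the light chain sum after saline, 14.1 to 32.9% after conidia and 14.9 to 20.4% after hyphae. Slc7a6 made up 10.5 to 16.5%, 18.4 to 33% and 45.6 to 52.2% in the same order, and the 3 ranges did not overlap. The leading light chain transcript was therefore Slc7a10 in all saline libraries and Slc7a6 in all hyphae libraries. These shares are descriptions of transcript levels with no test, and a further partner, Slc7a11, is not in the sum.

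**Figure D2:**
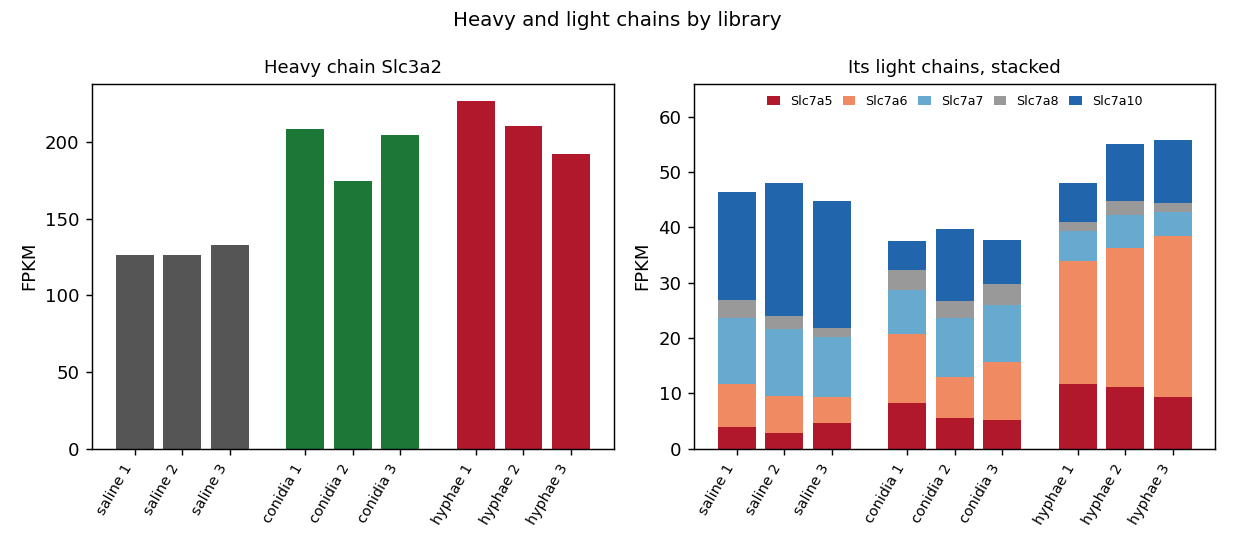
FPKM of the heavy chain Slc3a2 (left) and stacked FPKM of its light chains Slc7a5, Slc7a6, Slc7a7, Slc7a8 and Slc7a10 (right) in each of the 9 libraries; bars are single libraries, without error. The Slc7a6 segment grows from 10.5 to 16.5% of the stack after saline to 45.6 to 52.2% after hyphae, and the Slc7a10 segment is the largest after saline.

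Cationic amino acids, arginine and lysine among them, enter most cells through Slc7a1 (CAT1). It was at 3.76, 3.63 and 3.60 FPKM after saline, 4.81, 4.23 and 3.71 after conidia and 8.29, 9.49 and 9.78 after hyphae. All hyphae libraries lay far above the other 6 (log2 difference from saline 1.12, SE 0.11, adjusted p = 7.92e-05; 1.48 rescaled). Slc7a4, a relative with no established substrate, fell from 9.82, 10.4 and 9 FPKM after saline to 4.90, 3.68 and 3.08 after hyphae (−1.15, SE 0.19, adjusted p = 0.000808; −0.80 rescaled). Slc7a3 was not called (−0.45, adjusted p = 0.139).

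Slc6a14 is a concentrative carrier of airway and gut epithelium that takes up nearly all neutral and cationic amino acids. It was at 18.1, 24.9 and 25.3 FPKM after saline, 46.1, 26.6 and 36.4 after conidia and 62.1, 85.7 and 85.5 after hyphae. The 3 groups did not overlap, and the rise after hyphae was 1.73 (SE 0.22, adjusted p = 0.000226; 2.14 rescaled). Conidia libraries 1 and 3 were clearly above saline, and library 2 was barely above its highest value.

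The promoters of Slc6a14 and Slc7a1 are shown because these members rose after hyphae and hold a match to the AP-1 site TGANTCA (either strand). That pattern, with any middle base, is a loose form of the motif of Fos and Jun factors. This pair was picked for both the rise and the letters, so that neither bears on the other. The sequences are from RefSeq (build GRCm38.p6), 100 bases before the start of Slc6a14 (chrX:21714800-21714899, plus strand) and 150 bases before the upstream start of Slc7a1 (chr5:148399905-148400054, minus strand), with the match in capitals.
Slc6a14: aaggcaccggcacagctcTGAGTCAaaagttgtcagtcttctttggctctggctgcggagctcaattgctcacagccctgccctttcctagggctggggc
Slc7a1: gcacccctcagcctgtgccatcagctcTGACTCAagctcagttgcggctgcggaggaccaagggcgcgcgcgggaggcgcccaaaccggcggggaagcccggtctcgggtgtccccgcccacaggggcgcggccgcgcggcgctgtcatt
Counted from the start, the match begins at position −82 in Slc6a14 and −123 in Slc7a1. In the table, which covers 250 bases before to 50 after each start, 45 of the 61 members have 66 promoters, and 10 of these promoters (15.2%), from 9 members, hold the AP-1 letters, beside 7.81% of all 32851 promoters. Slc38a10 and Slc38a7, of which the first was not called and the second fell, hold them too, as do the weakly expressed Slc3a1, Slc6a5, Slc6a12, Slc6a17 and Slc6a19os. The middle base differed among these matches. Those of Slc38a10, Slc38a7 and Slc6a12 read TGATTCA, and Slc6a17 holds TGAATCA and TGAGTCA in separate promoters. No AP-1 match was in the windows of Slc3a2, Slc7a6 or Slc38a4. Of the other members called as higher, Slc7a5 has no promoter there, and no match was found for Slc43a3 or Slc6a8. The amino acid response element core TGATGNAA was in 4 of the 66 promoters (6.06%, beside 3.97% of all), those of Slc1a4, Slc6a21 and Slc7a7. Slc1a4 and Slc7a7 fell after hyphae, and Slc6a21 was too low to be tested.

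**Figure D3:**
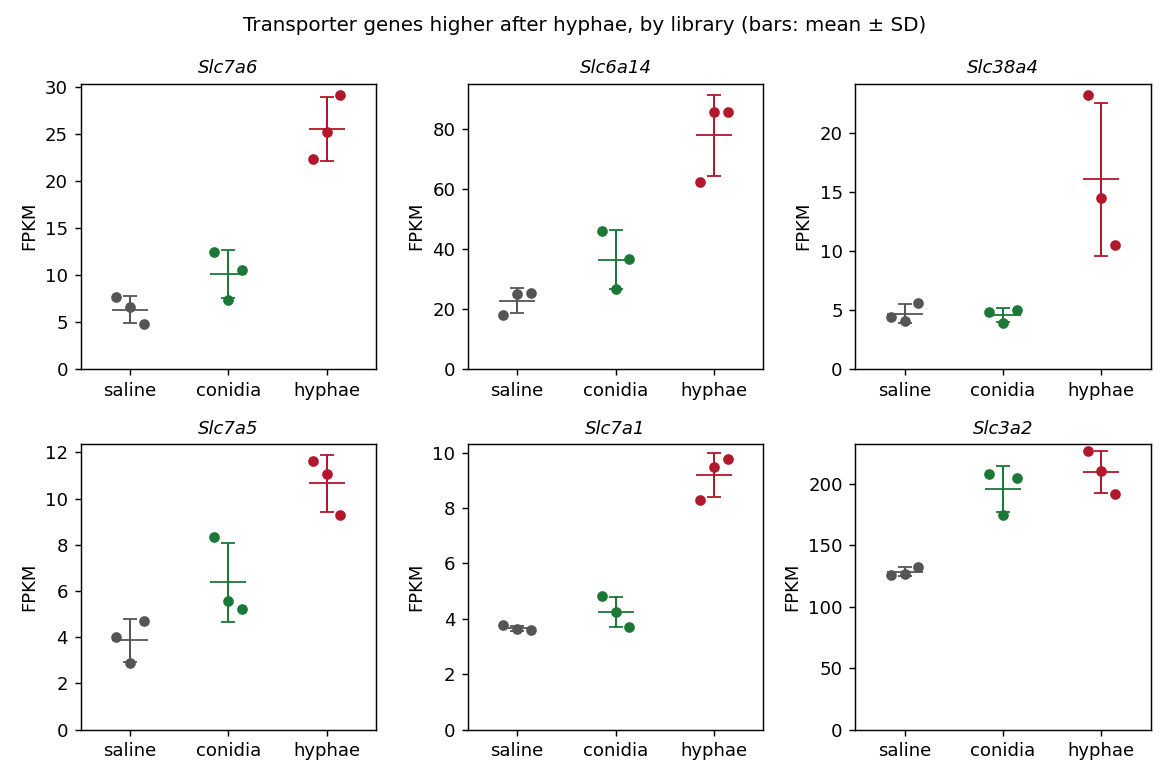
FPKM of 6 genes called as higher after hyphae, with 1 point per library (replicates 1, 2 and 3 from left to right) and bars of mean ± SD over 3 libraries. In Slc7a6, Slc6a14, Slc38a4, Slc7a5 and Slc7a1 the hyphae points lie above all others, and in Slc3a2 conidia and hyphae overlap above saline.

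Of the 8 sodium-coupled neutral carriers of the Slc38 family tested, 1 was higher and 4 lower after hyphae, and 2 higher and 3 lower after rescaling. These counts lie near the shares of all genes (14.9% higher and 50% lower, or 29.5% and 30% rescaled). Slc38a1, Slc38a2 and Slc38a4 are neighbours on the RefSeq map of 1 chromosome, and all 3 take up alanine and other small neutral amino acids with sodium. Slc38a4 (SNAT4), best known from liver and placenta, was at 4.39, 4.03 and 5.60 FPKM after saline, 4.84, 3.88 and 5.01 after conidia and 23.2, 14.5 and 10.5 after hyphae. It rose by 1.53 (SE 0.24, adjusted p = 0.000697; 1.90 rescaled), with hyphae libraries that themselves differed more than 2-fold. Slc38a2 (SNAT2), which cells raise when short of amino acids, stood at 38.5, 38.1 and 37.8 FPKM after saline, 51.2, 35.9 and 44.9 after conidia and 43, 49.2 and 48.4 after hyphae. The hyphae libraries lay above saline, and conidia overlapped with both. Its difference of 0.29 was not called as deposited (SE 0.13, adjusted p = 0.0696) and was called after rescaling (0.70, adjusted p = 0.00573). Slc38a1 (SNAT1) fell, from 10.4, 8.23 and 7.22 FPKM after saline to 4.82, 4.03 and 3.97 after hyphae, with 4.75, 6.99 and 5.48 after conidia (hyphae against saline −0.86, SE 0.16, adjusted p = 0.00164; −0.50 rescaled). Of the 3 neighbours, 2 were thus above saline in every hyphae library and 1 below it.

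Slc38a6, a family member described in brain, had the deepest fall of all members. It was at 12.4, 12.2 and 10.9 FPKM after saline, 5.92, 9.65 and 7.91 after conidia and 3.71, 3.06 and 2.86 after hyphae, with no overlap between any 2 groups. The difference of hyphae from saline was −1.61 (SE 0.16, adjusted p = 7.92e-05; −1.27 rescaled). Slc38a6 overlaps Trmt5 on the RefSeq map, and since the protocols mention no strand marking, reads from the overlap cannot be assigned. Trmt5, a tRNA methyltransferase, fell less (−0.81, adjusted p = 0.000768; −0.49 rescaled). Slc38a5 (SNAT5), a glutamine carrier, was at 17.0, 23.8 and 21.2 FPKM after saline, 4.58, 15.1 and 5.14 after conidia and 10.7, 12.9 and 12.7 after hyphae. Both fungal groups lay below saline without overlap as deposited, and hyphae overlapped with saline after rescaling. Neither difference was called (hyphae −0.72, SE 0.35, adjusted p = 0.101), and conidia replicate 2 was about 3 times the other conidia libraries. Slc38a10 stood at 31.2 to 33.3 FPKM after saline and 26.3 to 32.4 after hyphae (−0.12, adjusted p = 0.506), and the sign turned after rescaling (0.29, adjusted p = 0.126).

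Slc36a1, Slc38a7 and Slc38a9 are described together because they are known from the lysosome, a grouping made after their values had been seen. The first pair was lower after hyphae on both scales and Slc38a9 as deposited only, where 50% of all genes tested were lower (30% rescaled). None of the 3 was called after conidia (−0.01, −0.08 and −0.20; 0.06 rescaled for Slc36a1), and hyphae differed from conidia by the test in the first pair and not in Slc38a9 (−0.28, adjusted p = 0.0993). Slc36a1 (PAT1), which exports small amino acids from lysosomes with protons, was at 8.24, 7.30 and 6.98 FPKM after saline, 6.23, 8.36 and 7.91 after conidia and 3.49, 2.60 and 1.97 after hyphae (hyphae against saline −1.22, SE 0.17, adjusted p = 0.000308; −0.90 rescaled). Slc38a7 (SNAT7), which exports glutamine and asparagine from lysosomes, was at 8.44, 7.86 and 9.12, then 6.78, 8.88 and 8.24, then 4.93, 3.81 and 3.61 FPKM in the same order (−0.90, SE 0.13, adjusted p = 0.000498; −0.54 rescaled). In both genes saline and conidia overlapped and every hyphae library was lower. Slc38a9, a lysosomal carrier that reports arginine to mTORC1, the kinase complex that couples nutrients to growth, was at 3.73, 3.83 and 3.67 FPKM after saline and 2.32, 2.26 and 2.62 after hyphae. Its fall of 0.48 (−0.48, SE 0.13, adjusted p = 0.0115) was not called after rescaling (−0.17, adjusted p = 0.246) and turned to 0.14 under quantile normalization. Slc36a4 showed a difference of 0.01 as deposited (adjusted p = 0.932) and was called as higher after rescaling (0.37, adjusted p = 0.0456). Slc36a2 (PAT2), a neighbour of Slc36a1 on the RefSeq map, fell from 35.2, 22.2 and 25.8 FPKM after saline to 13.7, 11.9 and 15.8 after hyphae (−0.94, SE 0.19, adjusted p = 0.00248; −0.55 rescaled).

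The promoters of Slc36a1 and Slc38a7 are shown because each holds the E-box CACGTG close to its start. They were picked for both the fall and the letters, so that neither bears on the other. The E-box is a palindrome bound by MYC and by the TFEB family of lysosomal regulators. The sequences are again from RefSeq (GRCm38.p6), the 100 bases before the start, at chr11:55204240-55204339 (plus strand) for Slc36a1 and chr8:95853492-95853591 (minus strand) for Slc38a7, with the E-box in capitals.
Slc36a1: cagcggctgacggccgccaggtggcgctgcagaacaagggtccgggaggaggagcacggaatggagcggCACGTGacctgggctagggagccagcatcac
Slc38a7: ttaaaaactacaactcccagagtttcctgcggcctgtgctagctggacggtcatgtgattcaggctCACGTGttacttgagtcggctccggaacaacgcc
The E-box begins at position −31 in Slc36a1, which has a further copy at −3, and at −34 in Slc38a7. The AP-1 letters of Slc38a7 begin at −45 and do not overlap the E-box. Of the 66 member promoters 9 (13.6%) hold the E-box, each from a different member, beside 7.15% of all promoters. The others were those of Slc38a5, Slc43a1, Slc1a6, Slc1a7, Slc6a3, Slc6a16 and Slc7a14, and none was in the window of Slc38a9. A match describes the letters only.

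**Figure D4:**
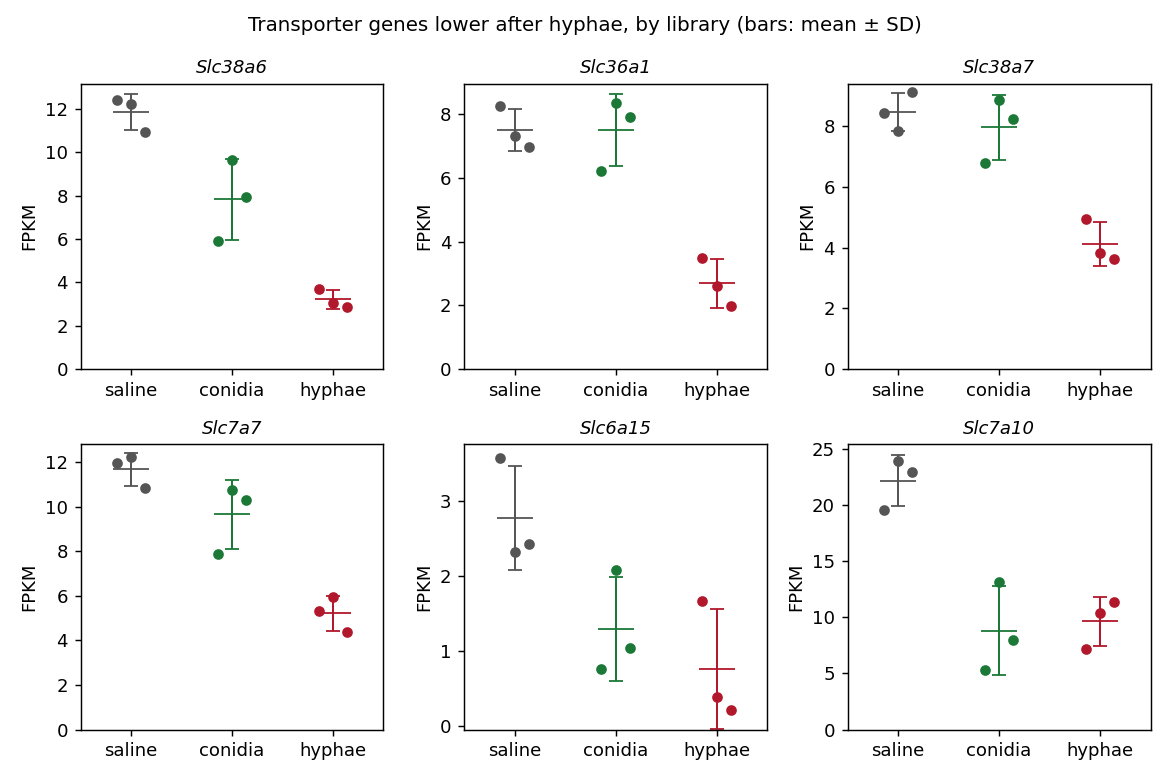
FPKM of 6 genes called as lower after hyphae, with 1 point per library (replicates 1, 2 and 3 from left to right) and bars of mean ± SD over 3 libraries. Conidia lie at the saline level in Slc36a1 and Slc38a7, between the groups in Slc38a6, and at the hyphae level in Slc7a10.

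Among the Slc1 carriers, Slc1a3 (GLAST), a glutamate transporter, was at 10.5, 8.44 and 7.09 FPKM after saline, 4.62, 6.17 and 4.80 after conidia and 3.55, 3.34 and 4.26 after hyphae. The 3 groups did not overlap as deposited, and conidia and hyphae overlapped after rescaling (hyphae against saline −1.03, SE 0.16, adjusted p = 0.000563; −0.68 rescaled). Slc1a4 (ASCT1), which carries serine and alanine, fell from 11.3, 10.7 and 8.44 FPKM after saline, with 5.13, 7.71 and 7.20 after conidia, to 5.94, 5 and 4.50 (−0.86, SE 0.17, adjusted p = 0.00187; −0.50 rescaled). Its better known relative Slc1a5 was at 106, 116 and 135 FPKM after conidia and 105, 97.0 and 119 after hyphae, and both overlapped with saline (hyphae −0.35, SE 0.18, adjusted p = 0.118; 0.07 rescaled). Slc1a1, a glutamate and cysteine carrier, stood at 7.60 to 9.32 FPKM after saline and 7.33 to 8.39 after hyphae (−0.09, adjusted p = 0.49), and the sign turned after rescaling (0.28, adjusted p = 0.0817).

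In the Slc43 family, Slc43a3 stood at 229, 179 and 243 FPKM after conidia and 219, 248 and 209 after hyphae, above all saline libraries. Its rise after hyphae was 0.82 (SE 0.19, adjusted p = 0.00445; 1.23 rescaled). Slc43a2 (LAT4), a facilitative leucine carrier, was at 12.3, 16.4 and 17.5 FPKM after saline, 23.5, 18.5 and 25.7 after conidia and 15.8, 14.6 and 10.7 after hyphae. As deposited only the conidia libraries lay apart from the rest, and after rescaling they overlapped with hyphae. Hyphae against saline was not called on either scale, with opposite signs (−0.16, SE 0.18, adjusted p = 0.469; 0.23 rescaled). Slc43a1 (LAT3) overlapped in all groups as deposited, at 1.41 to 4.39 FPKM after saline and 2.37 to 3.78 after hyphae (0.05, adjusted p = 0.891).

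The remaining Slc6 carriers moved in both directions. Slc6a8, the creatine carrier, rose from 14.3, 13.5 and 16.3 FPKM to 23.2, 21.2 and 18.8 after hyphae (0.49, SE 0.11, adjusted p = 0.00361; 0.88 rescaled). Slc6a9 (GLYT1), a glycine carrier, was at 21.3, 17.8 and 19.0 FPKM after saline and 14.3, 12.4 and 10.7 after hyphae, a fall as deposited (−0.60, SE 0.11, adjusted p = 0.00158) that was not called after rescaling (−0.21, adjusted p = 0.0943). It overlaps Ccdc24 on the RefSeq map, which fell by more (−1.91, adjusted p = 0.000843). Slc6a15, a carrier of branched-chain amino acids and proline, was at 3.57, 2.32 and 2.42 FPKM after saline, 0.76, 2.08 and 1.04 after conidia and 1.67, 0.38 and 0.21 after hyphae. It fell by 1.18 after hyphae (SE 0.32, adjusted p = 0.00993; −0.98 rescaled). The 13 ciliated cell markers examined moved in a like way across libraries, with summed levels of 412, 304 and 246 FPKM after saline, 161, 267 and 202 after conidia and 154, 53.7 and 48.0 after hyphae. Of these markers 12 fell after hyphae on both scales and none was at 0 throughout a group. Their part in the Slc6a15 result was not tested.

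The monoamine carriers are known from the lung endothelium, and bulk tissue does not show which cells held their transcripts here. Slc6a2 takes up noradrenaline and Slc6a4 serotonin. Slc6a2 was at 8.90, 11.3 and 15.2 FPKM after saline, 22, 20.7 and 29.0 after conidia and 19.1, 12.5 and 7.20 after hyphae, a spread among hyphae libraries that covered the whole saline range (0.06, SE 0.31, adjusted p = 0.879). Slc6a4 was at 1.61, 1.59 and 2.23 FPKM after saline and 3.70, 1.94 and 1.83 after hyphae, not called as deposited (0.28, adjusted p = 0.261) and called after rescaling (0.56, adjusted p = 0.0289). Platelets also take up serotonin, and the 10 platelet markers summed to 166, 92.8 and 93.6 FPKM in hyphae replicates 1 to 3, with replicate 1 highest in both. Their range was 67.8 to 104 FPKM after saline, 6 of the 10 rose after hyphae (7 rescaled) and none was at 0 throughout a group. Their part in the Slc6a4 value was not tested. The 15 endothelial markers summed to 1570 to 2350 FPKM after saline, 2180 to 2520 after conidia and 2090 to 2270 after hyphae. Of these, 3 rose and 5 fell after hyphae (6 and 4 rescaled), and none was at 0 throughout a group. The part of the endothelial markers in the Slc6a2 and Slc6a4 values was not tested. Slc6a6 was at 46.9, 39.0 and 53.9 FPKM after saline, 36.9, 38.5 and 33.8 after conidia and 48.1, 48.8 and 39.1 after hyphae. Against saline its difference after hyphae was −0.03 as deposited (adjusted p = 0.841) and 0.38 rescaled (adjusted p = 0.0401), so that the sign turned with the scale.

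Conidia were set against saline to ask the same of spores. Slc3a2 was the only member of 36 that was called (2.78%, beside 0.69% of all genes, 0.596% higher and 0.0945% lower), at 0.60 (SE 0.10, adjusted p = 0.047). No called member reached a fold of 2, beside 0.53% of all genes (0.269% rescaled). The Slc3a2 call was lost after rescaling (0.68, adjusted p = 0.0589), and 0.342% of all genes were called on that scale, 0.298% higher and 0.0436% lower. It was also lost without saline replicate 1, 2 or 3, without conidia replicate 1 or 3, or without hyphae replicate 2, with adjusted p of up to 0.224. The median over the 36 members was −0.04 (0.03 rescaled), beside −0.07 (−0.01) over all genes. Unadjusted p-values under 0.05 in limma were seen for 18 members (50%), beside 21.1% of all genes tested (16 rescaled, 44.4% beside 21.1%). In 19 of the 36 members (52.8%) the conidia libraries did not overlap with saline, beside 29.8% of all genes tested.

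Conidia replicate 2 stood closer to saline than the other conidia libraries in Slc3a2, Slc7a6, Slc6a14, Slc38a5 and Slc7a10, and 15 neutrophil markers summed to 3258, 917 and 2326 FPKM in conidia replicates 1 to 3 against 179 to 192 FPKM after saline. Without that library 11 of the 35 members then tested were called (31.4%), with adjusted p from 0.000802 to 0.0431, while 1503 of 13685 genes (11%) were called in all, up from 95. The part of the neutrophil markers in these values was not tested. The 5 rises were Slc3a2, Slc43a3 (0.88), Slc6a14 (0.84), Slc7a6 (0.78) and Slc6a20a (1.30), and the 6 falls were Slc38a5 (−1.88), Slc7a10 (−1.61), Slc36a2 (−0.80), Slc1a3 (−0.75), Slc38a6 (−0.71) and Slc38a1 (−0.64). With all libraries the last 2 and Slc36a2 had differences of −0.56, −0.51 and −0.68 (adjusted p = 0.115, 0.134 and 0.115). Slc38a5 had the widest difference of all members, −1.39 (SE 0.35, adjusted p = 0.0938), followed by Slc7a10 at −1.31 (SE 0.27, adjusted p = 0.0675). Among the conidia libraries both were lowest in replicates 1 and 3. There the 8 B cell markers summed to 46.7 and 43.3 FPKM, against 128 in replicate 2 and 93.0 to 169 after saline. The B cell marker Fcer2a went the other way, at 21.7, 10.55 and 12.3 FPKM in conidia replicates 1 to 3. The T cell sums (18.3, 51.9 and 16.2 FPKM) and those of alveolar type 2 and fibroblast markers were likewise highest in replicate 2. After hyphae the B cell sums were 22.3 to 59.0 FPKM, with Slc38a5 at 10.7 to 12.9. None of these markers was at 0 throughout a group, and their part in the 2 values was not tested. Slc7a10 and Slc36a2 are also known from fat. The 10 adipose markers summed to 1410, 66.5 and 214 FPKM in saline replicates 1 to 3. Their sums were 75.4, 188 and 574 after conidia and 64.3, 34.5 and 845 after hyphae. Slc36a2 was at 35.2, 22.2 and 25.8 FPKM after saline, 13.4, 20 and 17.3 after conidia and 13.7, 11.9 and 15.8 after hyphae. Slc7a10 was at 19.6, 23.9 and 22.9, then 5.29, 13.1 and 8.01, then 7.15, 10.4 and 11.4 FPKM in the same order of groups. No adipose marker was at 0 throughout a group, and their part in the Slc7a10 and Slc36a2 values was not tested.

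Slc6a20a, a carrier of proline and its relatives, was at 0.82, 1.34 and 1.37 FPKM after saline, 5.97, 1.32 and 3.05 after conidia and 0.96, 1.16 and 0.62 after hyphae. The neutrophil sums were 3258, 917 and 2326 FPKM in conidia replicates 1 to 3 and 736, 2074 and 6287 in hyphae replicates 1 to 3. The part of these markers in the Slc6a20a values was not tested. Slc6a20b, the near-identical neighbour of Slc6a20a, could share reads with it and stayed at 0.21 FPKM or less.

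Hyphae and conidia were then compared directly, which tests whether the 2 fungal forms left different levels. Of the 36 members 16 differed (44.4%), 6 higher and 10 lower in hyphae, beside 55.2% of all genes (12.7% higher, 42.5% lower). After rescaling 16 differed, 11 higher and 5 lower, beside 51% of all genes, 25.8% higher and 25.2% lower. By a fold of at least 2, 6 members differed (14.1% of all genes), and 4 after rescaling (11.2%). Libraries did not overlap in 18 members (50%, beside 59.9% of all genes) and in 17 after rescaling (47.2%, beside 57.2%). On both scales 6 were higher and 5 lower. The 6 were Slc38a4 (1.55, SE 0.24, adjusted p = 0.000902), Slc7a6 (1.28, SE 0.20, adjusted p = 0.000971), Slc6a14 (1.09), Slc7a1 (0.96), Slc7a5 (0.68) and Slc6a8 (0.32). The 5 were Slc36a1 (−1.22, SE 0.17, adjusted p = 0.000447), Slc38a6 (−1.05), Slc38a7 (−0.81), Slc7a7 (−0.78) and Slc6a9 (−0.64). Slc7a5 lost its call without conidia replicate 3 or hyphae replicate 2 (adjusted p of up to 0.0595), and Slc6a8 without conidia replicate 1 or 2 or hyphae replicate 1 or 2 (up to 0.101).

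A further 5 members were lower in hyphae as deposited and not called after rescaling. They were Slc6a20a (−1.08, adjusted p = 0.025; 0.065 rescaled), Slc6a2 (−0.92, 0.0334; 0.126), Slc43a2 (−0.68, 0.0124; 0.139), Slc7a4 (−0.61, 0.023; 0.108) and Slc7a8 (−0.60, 0.0285; 0.165). Except for Slc7a4, these stood highest after conidia and did not overlap between the fungal groups as deposited. After rescaling they overlapped. All but Slc43a2 lost the call when some single libraries were left out. In the other direction Slc38a5 (0.98), Slc6a4 (0.74), Slc6a6 (0.64), Slc7a6os (0.55) and Slc3a2 (0.44) were called as higher in hyphae only after rescaling. For Slc3a2 the deposited difference between the fungal forms was 0.10 (SE 0.10, adjusted p = 0.443).

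Cell type markers moved with the groups. The 15 neutrophil markers summed to 179 to 192 FPKM after saline and 736 to 6290 after hyphae. Of these, 10 rose after hyphae on both scales, and none was at 0 throughout a group. The 12 club and goblet cell markers summed to 69800 to 128000 FPKM after saline and 33200 to 41800 after hyphae (8 fell, 5 rescaled). The 9 T cell markers summed to 41.2 to 55.9 FPKM after saline and 12.9 to 23.3 after hyphae (7 fell, 5 rescaled). The 8 B cell markers summed to 93.0 to 169 and 22.3 to 59.0 FPKM (6 fell, 3 rescaled). Their part in the transporter results was not tested. Among the hyphae libraries the neutrophil sum was lowest in replicate 1 and highest in replicate 3, more than 8 times apart. As deposited, Slc7a5, Slc3a2 and Slc38a4 were highest in replicate 1 and lowest in replicate 3. After rescaling Slc7a5 (12.9, 13.7 and 11.4 FPKM in hyphae replicates 1 to 3) and Slc3a2 (252, 260 and 236) were highest in replicate 2. Slc7a1 and Slc7a6 were lowest in replicate 1 on both scales.

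Genes around the transporters were taken from lists of related functions. Their counts after hyphae are to be read against all genes tested, of which 14.9% were higher and 50% lower (29.5% and 30% rescaled). Of the 87 listed genes tested, 0 were called by limma after conidia, with 15 at an unadjusted p under 0.05 (20 rescaled). Without conidia replicate 2, Slc7a11 (2.14, adjusted p = 0.0492) and Ggt1 (1.33, adjusted p = 0.00971) were called among those named here. Of 20 genes of the amino acid response, the programme that the factor ATF4 switches on when amino acids run short, 6 rose and 7 fell after hyphae, and 8 rose and 4 fell after rescaling. Atf4 itself rose (1.01, adjusted p = 0.000659; 1.42 rescaled), with 98.8, 116 and 128 FPKM after saline, 182, 129 and 178 after conidia and 212, 219.5 and 259.8 after hyphae. Atf3, a stress factor, rose most (4.37, SE 0.46, adjusted p = 0.000106), followed by Ddit4, an inhibitor of mTORC1 (1.86, SE 0.37, adjusted p = 0.00225). Asns, asparagine synthetase and a classical ATF4 target, was not called as deposited (0.29, adjusted p = 0.0719; 0.68 rescaled, adjusted p = 0.00241). Chac1 (−0.78) and Cebpg (−1.54), a target and a binding partner of ATF4, fell on both scales.

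Of 29 genes of amino acid sensing to mTORC1, 3 rose and 18 fell after hyphae (9 and 11 rescaled). Sesn1, a sestrin that restrains mTORC1, rose by 2.43 (SE 0.18, adjusted p = 2.91e-05), and Mlst8, a subunit of mTORC1, fell by 2.25 (−2.25, SE 0.14, adjusted p = 2.06e-05; −1.99 rescaled). Of 12 tested enzymes of glutamine and glutamate, 1 rose and 4 fell (4 and 2 rescaled). Glul, glutamine synthetase, rose by 1.37 (SE 0.20, adjusted p = 0.000494), and Aldh18a1, which starts proline synthesis, fell (−1.05, adjusted p = 0.000429). Of 9 genes of branched-chain and tryptophan breakdown, 1 rose and 4 fell (2 and 3 rescaled), with Afmid at 1.5 (adjusted p = 0.000363) and Kmo at −1.52 (adjusted p = 0.000352), enzymes of neighbouring steps in the kynurenine pathway. Among 16 carriers outside the 7 chosen families or left out of them, 2 rose and 9 fell (2 and 5 rescaled), and the largest differences were those of Slc7a11 (1.59, SE 0.49, adjusted p = 0.018) and Slc15a3, a lysosomal carrier of histidine and peptides (1.33, SE 0.48, adjusted p = 0.0344). Slc15a3 lost its call without any 1 saline library or hyphae replicate 2 or 3, and Slc7a11 without hyphae replicate 2.

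Against conidia, where 12.7% of all genes were higher and 42.5% lower in hyphae (25.8% and 25.2% rescaled), the same lists gave 5 rises and 9 falls for the amino acid response and 3 rises and 18 falls for sensing to mTORC1 in hyphae as deposited (7 and 5, and 7 and 8, rescaled). Sesn1 (2.57, adjusted p = 3.33e-05), Afmid (1.56, adjusted p = 0.000426), Mlst8 (−2.17, adjusted p = 2.75e-05), Kmo (−1.18, adjusted p = 0.00177) and Aldh18a1 (−1.04, adjusted p = 0.000638) differed in the same direction. Atf3 was higher by 4.22 (adjusted p = 0.000167) and Cebpg lower (−1.82, adjusted p = 2.51e-05). Slc16a10, a carrier of aromatic amino acids, was lower in hyphae (−1.19, SE 0.16, adjusted p = 0.000355), as were Mfsd12, a lysosomal cysteine carrier (−1.12, SE 0.18, adjusted p = 0.000877), and Ggt1, which splits extracellular glutathione (−0.96, SE 0.26, adjusted p = 0.0119). The 2 comparisons of hyphae share their hyphae libraries, and those with saline share the saline libraries.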

How the data were processed

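RNA of 9 lung libraries was measured, 3 each after saline, conidia and hyphal fragments. The deposited values are FPKM per the file headers, computed by the authors, with 1 file per library. The submitters' processing notes list HISAT, Bowtie2 and mm9 with no role or version; no source used here names the counting tool. Groups and replicate numbers come from the titles. Values were taken as log2(FPKM + 1), and 13761 genes reaching 1 FPKM in 3 or more libraries were tested in 1 limma-trend model with robust empirical Bayes (limma 3.58.1, R 4.3.3), all 9 libraries and no covariate. Tests were two-sided and adjusted by Benjamini and Hochberg over all genes tested. An exact permutation test of 3 against 3 cannot give a two-sided p below 0.1. The approximate depth assumes fragments of 150 bases. No counts were used, so single values have no interval. The members and lists were chosen with earlier results of these data known. Named genes were a preset group of members, the 10 largest non-overlapping calls per comparison, members whose call changed with the scale, and the 2 largest calls per list. Markers and motifs were described without a test. Promoters are on GRCm38.p6, not the build of the files. Alternatives were other pseudocounts, filters and scalings, non-robust moderation, 2-group fits, a replicate block and leaving out each library. Of the genes counted, 1 low member and 1 listed gene are not reported here by name.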

Additional observations from a re-analysis of the deposited data

How the results depend on the processing

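The number of transporter genes called for hyphae against saline (21) lay between 19 and 24 under every alternative run. These were 37.7 to 66.7% of the 29 to 61 members tested, beside 51.3 to 65.9% of all genes. For hyphae against conidia the number (16) lay between 11 and 18, or 29.5 to 48.6% of members beside 41.3 to 57.5% of all genes. For conidia against saline the single call became 0 without the filter on low values, after median-of-ratios rescaling, after quantile normalization and in the fit of only the 2 groups compared. In these 4 settings 0.227 to 1.04% of all genes were called. The number of members called ranged from 0 to 11 (0 to 31.4%) when 1 library was left out, beside 0 to 11% of all genes. With limma 16 to 20 members still had an unadjusted p under 0.05 in those 4 settings, and 11 to 19 with 1 library left out. After rescaling these were 44.4% of members beside 21.1% of all genes, a share not taken in the other alternatives. The cause of the change in calls was not tested. Rescaling turned the sign of 4 members in conidia against saline, 7 in hyphae against saline and 5 in hyphae against conidia. The 7 were Slc1a1, Slc1a5, Slc6a6, Slc6a20a, Slc7a8, Slc38a10 and Slc43a2, of which Slc6a6 was called after rescaling (0.38). In hyphae against saline the signs of Slc1a1 (0.36) and Slc38a9 (0.14) turned under quantile normalization. Deviations from the group means correlated at −0.312 to 0.425 between same-numbered libraries and at −0.536 to 0.297 between differently numbered ones. The highest value was that of hyphae and saline replicate 2, and with 3 libraries per group a pairing by number is not resolved. With the replicate number as a block the calls were 1 (Slc7a10, lower) for conidia against saline, 21 for hyphae against saline and 14 for hyphae against conidia. In that order these were 2.78, 58.3 and 38.9% of members, beside 0.414, 62.2 and 52% of all genes. Depth limits what can be said of the 25 members under 1 FPKM.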
